A study of Bos taurus with 10 samples.

Results

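The Ly6 genes described here encode small surface proteins of the lymphocyte antigen 6 family. The members were Ly6a, Ly6c1, Ly6c2, Ly6d, Ly6e, Ly6f, Ly6i, Ly6k and Ly6h, taken by exact symbol from a table of expression values, and all 9 symbols had a row among its 21130 rows. The family was chosen by these same expression values, because Ly6c1 stood among the largest differences between the labelled groups. The values of the members in that comparison are therefore given as a description, with no test.

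Ly6 proteins carry a compact, cysteine-rich fold called the Ly6/uPAR domain, and most are held on the outer face of the plasma membrane by a glycosylphosphatidylinositol (GPI) anchor. Ly6a is Sca-1, widely used in the mouse to mark haematopoietic stem cells and mesenchymal progenitors, and Ly6c1 and Ly6c2 encode the Ly6C antigen of monocytes, endothelium and some T cells. Interferons are known to raise several of these genes, among them Ly6a, Ly6c and Ly6e.

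The labels describe muscle of 24-month-old cattle in 2 groups, 7 libraries of genotype MSTN+/- (1 altered copy of the myostatin gene) and 3 libraries of wild type. The sources used here do not give breed, sex, the edit itself or the number of animals, so the spread between libraries may be partly technical. Values are FPKM, fragment counts scaled to transcript length and to library size, which allow levels of different genes to be compared per length. Because the contents go against the labelled species and tissue, groups are named by their labels only.

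Of the 21130 rows 19415 were described as Mus musculus genes, and the members were among them. All 9 carried a mouse protein as their best match, and 0 of their gene identifiers were in a RefSeq table of cattle genes (assembly ARS-UCD2.0). Only 4 of the 9 symbols, those of Ly6d, Ly6e, Ly6h and Ly6k, were also cattle symbols. Ly6a, Ly6c1, Ly6c2, Ly6f and Ly6i were not. The deposited table placed 8 of the members, all but Ly6k, in KEGG orthology group K06846, to which it assigned 21 rows in total. In the cattle assembly LY6H, LY6E, LY6K and LY6D lie on a single chromosome in a stretch of 11 protein-coding genes, beside LYNX1, LYPD2 and SLURP1 of the same domain family. No coordinates accompany the deposited values, and none are given here.

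The libraries did not look like skeletal muscle either, and the wild-type libraries differed from one another. The summed level of 15 skeletal muscle transcripts was 17.8 to 35.1 FPKM across MSTN+/- and 40.1, 19.7 and 18.1 FPKM across wild-type replicates 1, 2 and 3. The most abundant of them were Myh2, a fast myosin heavy chain, at 5.73 to 15.3 FPKM across MSTN+/- against 0.14, 0.02 and 0 FPKM, and Acta1, skeletal alpha-actin, at 2.66 to 6.22 against 24.4, 3.58 and 2.87 FPKM. Ckm, the muscle creatine kinase, chosen after its values were seen, was at 0.13 to 1.07 FPKM in all libraries. Wild-type replicate 1 stood apart from replicates 2 and 3 in the marker lists given below, so the values of the 3 are mostly given singly. FPKM totals were 402716 to 464418 per library, and the number of fragments behind them is unknown.

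Ly6a, Ly6e and Ly6c1 made up nearly all of the family's signal. Ly6a had its lowest, median and highest MSTN+/- values at 1144, 1388 and 1510.3 FPKM, and was at 49.3, 63.25 and 22.6 FPKM across wild-type replicates 1, 2 and 3. The groups did not overlap, and the lowest MSTN+/- library was 18.1 times the highest wild-type library. The means were 1371 ± 119.5 FPKM (SD, n = 7) and 45.1 ± 20.7 FPKM (SD, n = 3), a ratio of 30.4 and a difference of 5.01 in mean log2(FPKM + 1). Against the wild-type replicates singly the MSTN+/- mean was 27.8, 21.7 and 60.7 times as high. By rank, Ly6a was between the 20th and the 44th most abundant of all rows in the MSTN+/- libraries and 1444th, 1265th and 3633rd in the wild-type libraries.

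Ly6c1, a Ly6C antigen gene, showed the largest ratio among members with a signal in every library. Its lowest, median and highest MSTN+/- values were 369.8, 536 and 562 FPKM, and it was at 10.1, 7.02 and 3.05 FPKM across wild-type replicates 1, 2 and 3. No value of one group reached the other. The MSTN+/- mean was 50.1, 72.4 and 167 times these single values, and the difference in mean log2(FPKM + 1) was 6.15.

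Ly6e, which in the mouse is an interferon-induced antigen of thymocytes and the receptor of the placental fusion protein syncytin-A, was the least different of the 3. Its lowest, median and highest MSTN+/- values were 468, 574 and 686 FPKM, against 105, 93.9 and 59.6 FPKM across wild-type replicates 1, 2 and 3. The groups again did not overlap. The means were 575 ± 73.7 FPKM (SD, n = 7) and 86.0 ± 23.5 FPKM (SD, n = 3), a ratio of 6.68 and a log2 difference of 2.76.

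The order of these genes was not the same under the 2 labels. In the 7 MSTN+/- libraries Ly6a was highest, at 2.09 to 2.76 times Ly6e, and the ranges of the 2 did not overlap. In the 3 wild-type libraries Ly6e was highest, with Ly6a at 0.472, 0.674 and 0.379 times its level. Ly6c1 came below Ly6e in 6 of the 7 MSTN+/- libraries, but their ranges overlapped there and the ratio of Ly6c1 to Ly6e was 0.76 to 1.07. In wild-type replicates 1, 2 and 3 that ratio was 0.097, 0.0748 and 0.0512.

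**Figure D1:**
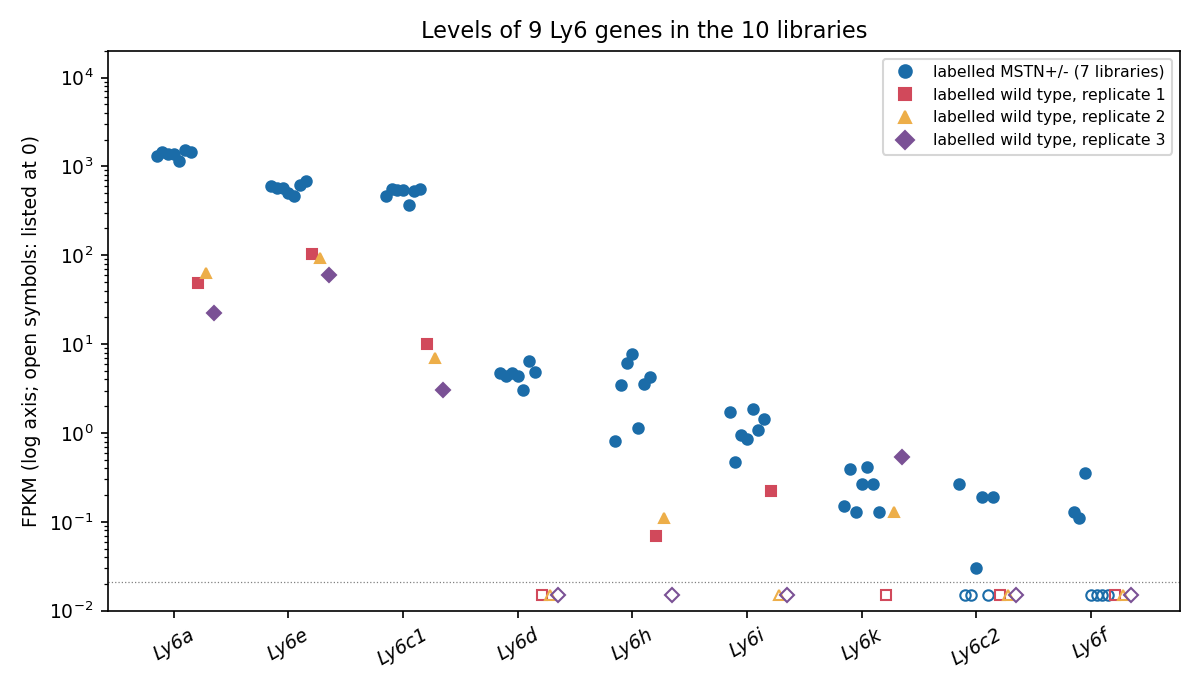
FPKM (log axis) of the 9 Ly6 genes in each of the 10 libraries, ordered by mean level, with filled symbols for values above 0 and open symbols under the dotted line for genes listed at 0. For Ly6a, Ly6e, Ly6c1, Ly6d, Ly6h and Ly6i all 7 MSTN+/- libraries sit above the 3 wild-type libraries, while Ly6k, Ly6c2 and Ly6f stay below 1 FPKM and overlap.

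The next members were far lower and differed in how steady they were. Ly6d, known from keratinocytes and early lymphoid cells, had its lowest, median and highest MSTN+/- values at 3.03, 4.76 and 6.45 FPKM and was listed at 0 in all 3 wild-type libraries. A value of 0 in this table can be a failed estimate, since Dpm1, a subunit of the dolichol-phosphate mannose synthase that cells generally need, was listed at 0 in 8 of the 10 libraries. No ratio is therefore given against 0.

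Ly6h, a brain-enriched member that binds nicotinic acetylcholine receptors, was the most variable of those above 1 FPKM. It was at 0.82, 3.43, 6.17, 7.82, 1.14, 3.60 and 4.31 FPKM across MSTN+/- replicates 1 to 7 and at 0.07 and 0.11 FPKM across wild-type replicates 1 and 2, and was listed at 0 in replicate 3. Its groups did not overlap, but the MSTN+/- values spanned 9.54 times from lowest to highest, against 1.32 times for Ly6a. The libraries with the least Ly6h, MSTN+/- replicates 1 and 5, also had the lowest sums of 10 pluripotent cell markers in that group, at 105 and 54.5 FPKM, and of 10 epithelial markers, at 82.4 and 89.9 FPKM. Replicate 4, with the most Ly6h, had the highest pluripotent sum of the group, 494 FPKM. Wild-type replicates 2 and 3 went against this order, with pluripotent sums of 2459 and 2583 FPKM and epithelial sums of 222 and 373 FPKM beside Ly6h at 0.11 and 0 FPKM. The part of these markers in the Ly6h values was not tested.

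Ly6i, a member known from myeloid cells and a close relative of Ly6a and Ly6c1, was near the limit of the table. It was at 0.47 to 1.85 FPKM across MSTN+/-, with a median of 1.07 FPKM, at 0.22 FPKM for wild-type replicate 1 and listed at 0 in replicates 2 and 3. Replicate 5 had the highest Ly6i and the lowest Ly6c1, and replicate 1 had Ly6i at 1.73 FPKM with Ly6c1 at 460.6 FPKM. Replicate 2, with Ly6c1 at 559.5 FPKM, had the lowest Ly6i. Replicate 7, with the highest Ly6c1 at 561.7 FPKM, went against this order, its Ly6i being above the median at 1.43 FPKM. A split of fragments between Ly6i and Ly6c1 was not tested.

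Ly6c2, Ly6f and Ly6k stayed below 1 FPKM in all 10 libraries. Ly6c2, the near copy of Ly6c1, was at 0.27, 0.03, 0.19 and 0.19 FPKM across MSTN+/- replicates 1, 4, 5 and 7 and listed at 0 elsewhere. Ly6f, another close relative of Ly6a, was at 0.13, 0.11 and 0.35 FPKM across MSTN+/- replicates 1, 2 and 3 and listed at 0 in the other libraries. Ly6k, best known from testis and sperm, was at 0.13 to 0.41 FPKM across MSTN+/- and at 0, 0.13 and 0.53 FPKM across wild-type replicates 1, 2 and 3. Its values above 0 lay within 0.15 of whole multiples, 1 to 4, of its smallest value of 0.13 FPKM. Single fragments would give such steps, so its levels may rest on a handful of them, but the depth of the libraries is unknown. For Ly6f and Ly6c2 the largest deviation from such multiples was 0.18 and 0.33. The log2 difference of Ly6k, 0.05, turned to -0.069 with quantile normalization, -0.21 with library weights and -0.079 without wild-type replicate 1.

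For 6 of the 9 members the lowest MSTN+/- library exceeded the highest wild-type one, and for 0 of 9 the highest MSTN+/- library was below the lowest wild-type one. Among all genes tested 25.2% did the first and 6.86% the second, and since the comparison itself proposed the family, the share of the members carries no further weight. A gene counted as tested when it reached 1 FPKM in at least 3 libraries. Of the members 6 passed this filter, 3 of them (Ly6d, Ly6h and Ly6i) only through the MSTN+/- libraries, so that these 3 had to differ, and Ly6c2, Ly6f and Ly6k did not pass. In bulk libraries such as these, fewer cells that express a gene and less of its RNA per cell cannot be told apart.

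Because near copies can share fragments, sums over the family were also taken. The 9 members together had 1988 to 2696 FPKM across MSTN+/-, lowest in replicate 5, and 164, 164 and 85.8 FPKM across wild-type replicates 1, 2 and 3. Their means were 2464 ± 240.6 FPKM (SD, n = 7) and 138 ± 45.4 FPKM (SD, n = 3), a ratio of 17.8. This was 0.447 to 0.591% of the library's whole FPKM total under the MSTN+/- label and 0.0408, 0.0362 and 0.0189% under the wild-type label. Summed over Ly6a, Ly6c1, Ly6c2, Ly6f and Ly6i, the close relatives, the level was 1516 to 2037 FPKM against 59.7, 70.3 and 25.6 FPKM, a ratio of means of 36.3. Adding Ly6c2 to Ly6c1 moved the ratio of means only from 75.40 to 75.42. With Ly6c2 listed at 0 to 0.27 FPKM this ratio could hardly move, and a split of fragments between the pair was not tested.

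The make-up of the sum differed as well. Ly6a, Ly6c1 and Ly6e together held 99.4 to 99.9% of it in each of the 10 libraries. Ly6a took 53.3 to 57.55% in the MSTN+/- libraries and 30.02, 38.5 and 26.3% in the wild-type libraries, and Ly6c1 took 18.6 to 22.1% against 6.17, 4.27 and 3.56%. Ly6e took 20.6 to 25.6% against 63.6, 57.1 and 69.5%. These ranges did not overlap between the groups for any of the 3 genes.

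**Figure D2:**
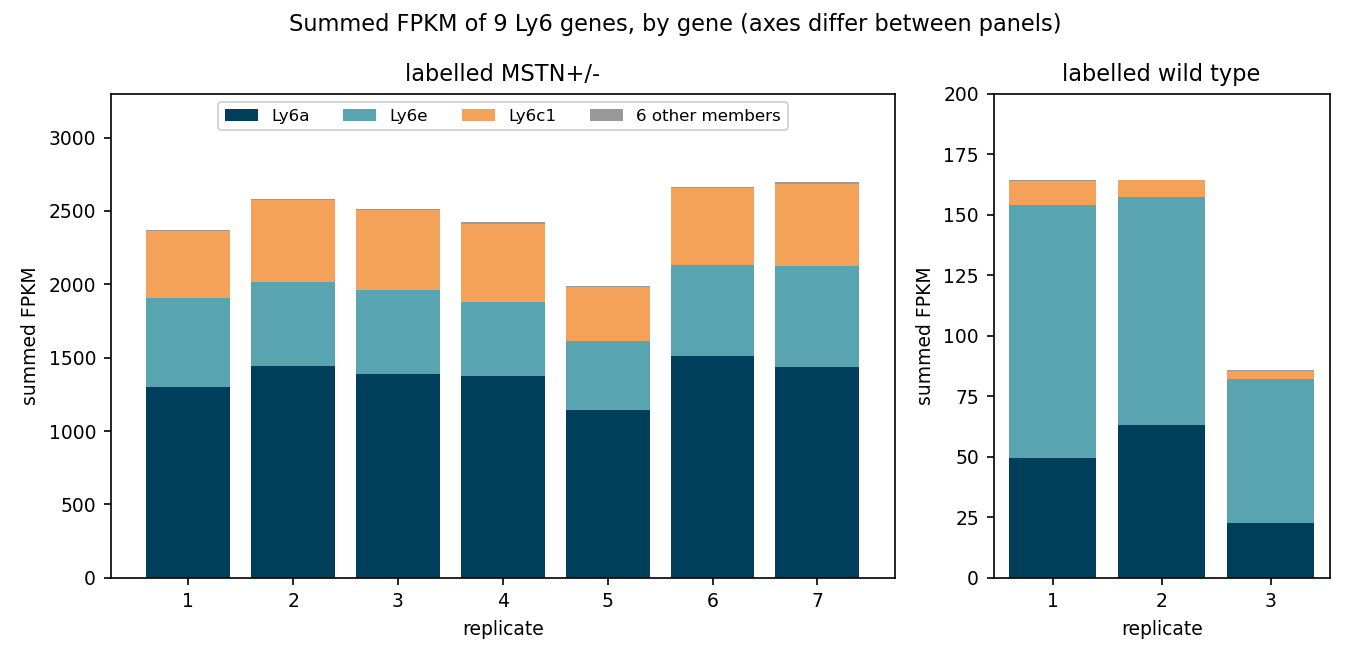
Summed FPKM of the 9 Ly6 genes per library, stacked by gene, with MSTN+/- replicates on the left axis and wild-type replicates on a right axis of smaller scale; each bar is 1 library. Ly6a fills over 50% of every MSTN+/- bar, and Ly6e over 50% of every wild-type bar.

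Other genes of the Ly6/uPAR domain family were examined from a list of 33, of which 22 had a row and 13 passed the low-value filter. In limma, with adjusted p under 0.05 over all 14047 genes tested, 10 of the 13 were higher in the MSTN+/- libraries and 0 lower, and 3 did not pass. No member of the list was lower at an unadjusted p under 0.05 either. Over all genes 31.8% were called higher and 12.8% lower. Of the 10 called genes 8 had no wild-type library at 1 FPKM, so that they entered the test only through the MSTN+/- libraries and had to differ, and their p-values are not given. Of the 5 that did not depend on this, 2 were higher, Cd59a and Lynx1, and 3 did not pass, Ly6g6d, Ly6g6e and Plaur. The median log2 difference of all genes tested was 0.17 as deposited, -0.0049 with median-of-ratios scaling and -0.06 with quantile normalization, and the higher share of all calls fell from 71.3% to 50.1% and 46.9%.

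Slurp1, a secreted Ly6 protein of skin and other epithelia, was the most abundant of them. It had 23.65, 58.25 and 88.1 FPKM as its lowest, median and highest MSTN+/- values and was listed at 0 in all 3 wild-type libraries, a log2 difference of 5.83. Markers of epithelium did not share 1 pattern. Of 8 tested in limma 5 were higher, 0 lower and 3 did not pass, beside 31.8% higher and 12.8% lower over all genes. Krt5, Krt14 and Trp63, among those called, had no wild-type library at 1 FPKM, so that they had to differ. The 10 of them summed to 82.4 to 200.2 FPKM across MSTN+/- and to 5.86, 222 and 373 FPKM across wild-type replicates 1, 2 and 3. Epcam, an epithelial adhesion molecule, was at 12.85 to 31.3 against 0.31, 95.4 and 151.8 FPKM, and the keratin gene Krt8 at 26.8 to 68.4 against 0.36, 9.81 and 25.5 FPKM. Chosen after their values were seen, the basal keratin gene Krt14 was at 7.42 to 24.2 FPKM across MSTN+/- and, as Slurp1, at 0 in each wild-type library, whereas the cadherin gene Cdh1 was at 11.3 to 28.9 against 0.06, 100.2 and 157.9 FPKM. Their part in the Slurp1 and Ly6d values was not tested.

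Cd59a, the cell-surface inhibitor of the complement membrane attack complex, had 13.5 ± 1.54 FPKM (SD, n = 7) against 2.66 ± 1.13 FPKM (SD, n = 3), a log2 difference of 2.02 (limma adjusted p = 1.413e-05). Lynx1, a GPI-anchored modulator of nicotinic receptors, had 15.4 ± 3.80 FPKM against 3.04 ± 1.26 FPKM, a log2 difference of 2.04 (limma adjusted p = 5.907e-05). Wild-type replicates 1, 2 and 3 had 3.93, 1.76 and 2.30 FPKM of Cd59a and 4.43, 2.72 and 1.97 FPKM of Lynx1. In both genes every MSTN+/- library was above every wild-type library, by at least 3.03 times for Cd59a and 3.02 times for Lynx1. Lypd2 was at 4.36 to 10.1 FPKM against 0, 0.62 and 0.41 FPKM, and Ly6g6c at 4.47 to 14.9 FPKM against 0.20, 0.85 and 0.85 FPKM, with log2 differences of 2.58 and 2.41. Psca, Lypd3, Lypd5, Lypd6b and Cd59b were the other 5 called genes, with log2 differences of 0.74 to 1.40, and the groups overlapped in Lypd5 alone of the 10.

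Plaur, the urokinase receptor and a larger protein with several such domains, did not follow. It was at 7.5 to 12.75 FPKM across MSTN+/- and at 34.6, 8.57 and 15.4 FPKM across wild-type replicates 1, 2 and 3, so that the groups overlapped (log2 difference -0.67, limma adjusted p = 0.1235). It was called lower against wild-type replicate 1 alone, with a log2 difference of -1.67, and without replicate 2, with -1.11 (limma adjusted p = 6.427e-04 and 0.01623). Ly6g6e was at 0.27 to 2.98 FPKM across MSTN+/-, with 7.43 and 4.27 FPKM in wild-type replicates 2 and 3, and was listed at 0 in replicate 1 (log2 difference -0.71, limma adjusted p = 0.3302). Its log2 difference was -1.63 without wild-type replicate 1, past the threshold (limma adjusted p = 0.002844), and 1.11 against that replicate alone (0.1100).

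**Figure D3:**
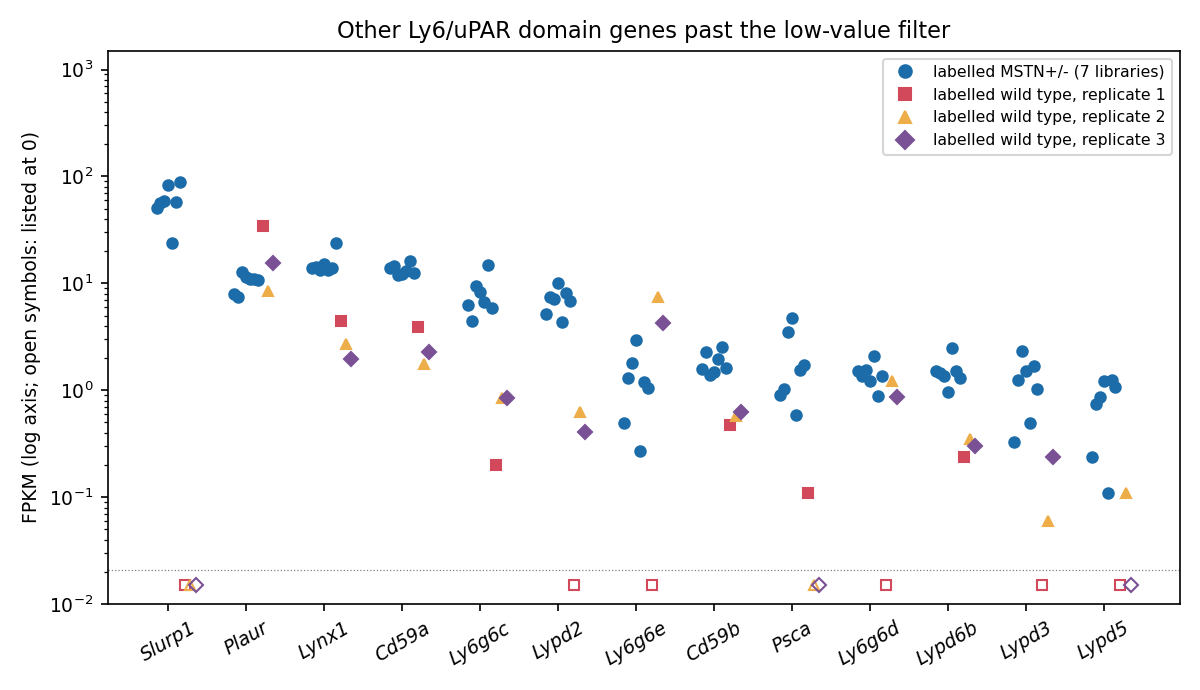
FPKM (log axis) of the 13 Ly6/uPAR domain genes outside the member list that passed the filter, by library, with open symbols for values listed at 0. In 9 of the 13 all 7 MSTN+/- libraries lie above the 3 wild-type libraries; Plaur and Ly6g6e have their highest values in wild-type libraries.

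The 5 tested neighbours of the cluster that encode no such domain showed smaller differences between the labels than Ly6a, Ly6c1 and Ly6e. Them6 was at 7.23 to 10.15 FPKM across MSTN+/- and at 1.85, 4.22 and 5.45 FPKM across wild-type replicates 1, 2 and 3. Top1mt, a mitochondrial topoisomerase, was at 6.98 to 9.82 against 5.63, 4.79 and 5.06 FPKM, Jrk at 1.84 to 2.40 against 1.61, 0.77 and 0.80 FPKM, and Zfp41 at 5.07 to 8.63 against 3.29, 5.70 and 4.90 FPKM. Arc, an immediate-early gene of neurons, had a lower mean, at 1.48 to 5.55 against 4.75, 12.4 and 23.4 FPKM, with the groups overlapping. The ratio of group means was 2.22 for Them6, 2.06 for Jrk, 1.5 for Top1mt, 1.41 for Zfp41 and 0.258 for Arc. It was 30.4, 75.4 and 6.68 for Ly6a, Ly6c1 and Ly6e, and since Ly6c1 proposed the family, this contrast is a description. The log2 difference of Ly6i, 1.005, was below that of Them6, 1.05. In limma Them6, Jrk and Top1mt were called higher (adjusted p = 0.004437, 0.005574 and 0.006428) and Arc lower (0.01516). Zfp41 did not pass (limma adjusted p = 0.0632). Over all genes 31.8% were called higher and 12.8% lower. These neighbours were named after their values were seen.

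Genes that build and attach the GPI anchor, on which most of the family depends, showed mostly small differences. Of 28 with a row 25 were tested in limma, 11 were higher, 0 were lower (also 0 at an unadjusted p under 0.05) and 14 did not pass, so that 44.0% were called, all of them higher. Over all genes 31.8% were called higher, 12.8% lower and 44.6% in either direction. The median log2 difference was 0.33, beside 0.17 for all genes. The largest among the called genes, picked after their values were seen, were 1.25 for Pigc, 1.20 for Pigp, 1.15 for Dpm3 and 1.11 for Pigh. Pigt, a subunit of the transamidase that transfers the anchor, had 77.6 ± 5.09 FPKM (SD, n = 7) against 43.9 ± 3.99 FPKM (SD, n = 3), a log2 difference of 0.81 (limma adjusted p = 1.174e-04). Dpm2, of the mannose donor synthase, had 39.6 ± 2.36 FPKM against 25.3 ± 0.098 FPKM, a log2 difference of 0.62 (limma adjusted p = 3.083e-04). Wild-type replicates 1, 2 and 3 had 45.7, 39.3 and 46.7 FPKM of Pigt and 25.3, 25.4 and 25.3 FPKM of Dpm2. With median-of-ratios scaling or quantile normalization 3 genes, Pigl, Pigm and Pigo, were called lower.

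Most of the interferon pathway genes listed were higher, and the uncalled ones were some of the receptor chains and kinases. Of 25 tested in limma 21 were higher, 0 lower (also 0 at an unadjusted p under 0.05) and 4 did not pass, beside 31.8% higher and 12.8% lower over all genes. The 4 were the receptor chains Ifnar1 and Ifngr2 and the kinases Jak1 and Tyk2, with log2 differences of 0.0095, 0.87, 0.41 and 0.27 (limma adjusted p = 0.9443, 0.0836, 0.3064 and 0.0906). The receptor chains Ifnar2 and Ifngr1 and the kinase Jak2 were called higher, with log2 differences of 1.45, 1.64 and 1.24 (limma adjusted p = 0.002745, 0.004286 and 0.01342). The median log2 difference of the 25 was 2.58 beside 0.17 for all genes. This list overlaps in kind with interferon genes already known to be higher in these data and is not independent evidence. Ifi35 had 48.4 ± 6.85 FPKM (SD, n = 7) against 6.28 ± 3.22 FPKM (SD, n = 3), and Rsad2, the antiviral enzyme viperin, 20.3 ± 3.29 FPKM against 1.39 ± 1.79 FPKM (log2 differences 2.86 and 3.41, limma adjusted p = 1.724e-05 and 5.801e-05). The wild-type libraries differed here, with Ifi35 at 6.49, 9.38 and 2.96 FPKM and Rsad2 at 0.02, 3.42 and 0.73 FPKM in replicates 1, 2 and 3. The sum of the 25 genes was 1593 to 2470 FPKM (2469.5 in replicate 1) in the MSTN+/- libraries and 219.6, 678 and 322 FPKM across wild-type replicates 1, 2 and 3.

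The order of the Ly6 sum was not that of the interferon sum. Among the MSTN+/- libraries the interferon sum was highest in replicate 1 and lowest in replicate 4, while the Ly6 sum was highest in replicate 7 and lowest in replicate 5. Wild-type replicates 1 and 2 had the same Ly6 sum, 164 FPKM, with interferon sums of 219.6 and 678 FPKM. The part of the interferon genes in the Ly6 values was not tested.

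Nicotinic acetylcholine receptor subunits, which Ly6h and Lynx1 are known to bind, were near the limit of the table. Of 16 subunits 10 stayed below 1 FPKM everywhere and 3 were tested. Chrna4 was at 1.02 to 2.64 FPKM across MSTN+/- and at 0.02, 0.22 and 0.09 FPKM across the wild-type ones, a log2 difference of 1.28, and passed the filter only through the MSTN+/- libraries, so that it had to differ. Chrna7 was at 0.28 to 1.02 FPKM against 1.72, 1.25 and 2.14 FPKM, the opposite direction (log2 difference -0.86), and passed the filter through the wild-type libraries. Chrnb1, the muscle-type beta subunit, was called higher (log2 difference 0.64, limma adjusted p = 0.03878), but this was 0.0090 against wild-type replicate 1 alone (0.9755) and missed the threshold in 12 of its 17 alternatives.

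The genes most like the 3 abundant members were sought by Pearson's r of log2(FPKM + 1) among 9561 other genes with a mean of at least 5 FPKM. Over the 10 libraries, where r mostly follows the gap between the groups, Ly6a was most like Cd34, a sialomucin of progenitor cells and endothelium (r = 0.997), then Zfp385a (0.996) and Tap2, a peptide transporter subunit of antigen presentation (0.995). Cd34 was at 176.6 to 234.9 FPKM across MSTN+/- and at 8, 7.39 and 1.59 FPKM across wild-type replicates 1, 2 and 3. Ly6e was most like Ctso, Unc93b1 and Cd34 (r = 0.995 for each), and Ly6c1 was most like Gm16897, the complement protease gene C1ra and Plekha6 (r = 0.998, 0.996 and 0.996). C1ra was at 76.9 to 93.75 FPKM against 5.01, 2.46 and 1.83 FPKM.

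Within the 7 MSTN+/- libraries the likeness was to other genes. Among those most like Ly6e were Fam195b and Glis2 (r = 0.979 and 0.963, and 0.928 and 0.933 without the 2 libraries farthest from the median of Ly6e, replicates 5 and 7). Ly6c1 was most like Chchd1 (r = 0.989, and 0.988 without replicates 5 and 1), then Rrp7a and Gng5. For Rrp7a the r of 0.970 fell to 0.144 without those 2 libraries, so that it rested on them. Ly6a was most like Rrp7a, Adck5 and Ngrn (r = 0.972, 0.970 and 0.949, and 0.924, 0.784 and 0.994 without replicates 5 and 6). These genes were picked as the highest of many over few libraries, and the values are a description.

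Markers of the cell types in which Ly6 genes are known were compared by their summed levels. The 12 leukocyte markers summed to 35.3 to 68.0 FPKM across MSTN+/- and 21.9, 72.0 and 83.8 FPKM across wild-type replicates 1, 2 and 3. The most abundant were Laptm5, at 30.5 to 56.8 against 3.48, 54.6 and 68.9 FPKM, and Cd68, at 3.72 to 13.1 against 4.64, 8.98 and 8.25 FPKM. Of 4 tested in limma 0 were higher, 1 lower and 3 did not pass, beside 31.8% higher and 12.8% lower over all genes. Lyz2, the lysozyme of myeloid cells, was the 1 called lower. It had passed the filter only through the wild-type libraries, at 0 to 0.29 against 9.81, 2.69 and 3.54 FPKM (log2 difference -2.33). Of the 12 genes 5 stayed below 1 FPKM everywhere. The pan-leukocyte gene Ptprc was at 0.04 FPKM or less in all libraries, and Adgre1, of macrophages, was listed at 0 in all 7 MSTN+/- libraries. The 10 endothelial markers summed to 24.3 to 37.3 FPKM against 9.15, 54.7 and 51.5 FPKM. Of 6 tested in limma 2 were higher, 1 lower and 3 did not pass, beside 31.8% higher and 12.8% lower over all genes. Tek, an angiopoietin receptor, was at 15.8 to 23.6 FPKM against 0.66, 2.24 and 1.37 FPKM (log2 difference 3.24, limma adjusted p = 1.214e-06). Egfl7, a secreted endothelial protein, went the other way at 1.52 to 5.90 against 5.85, 22.7 and 22.0 FPKM (log2 difference -2.03, limma adjusted p = 0.004040). Cldn5 was also called higher, but passed the filter only through the MSTN+/- libraries, so that it had to differ. Pecam1 was at 0.09 to 5.75 against 0.06, 26.4 and 24.3 FPKM, while Emcn, Tie1 and Kdr did not pass 0.32 FPKM in any MSTN+/- library.

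Fibroblast and pluripotent cell markers also differed among the wild-type libraries. The 11 fibroblast markers summed to 3400 to 6413 FPKM (3399.8 in replicate 4) in the MSTN+/- libraries and to 7486, 588 and 523 FPKM across wild-type replicates 1, 2 and 3. The 10 pluripotent cell markers summed to 54.5 to 494 FPKM and to 1.44, 2459 and 2583 FPKM. Over those 3 libraries Ly6a was at 49.3, 63.25 and 22.6 FPKM, Ly6c1 at 10.1, 7.02 and 3.05 FPKM and Ly6e at 105, 93.9 and 59.6 FPKM, so that Ly6c1 and Ly6e were in the order of the fibroblast sum and Ly6a did not. The part of either marker list in the Ly6 values was not tested. The most abundant fibroblast genes were the collagen genes Col1a1, at 969 to 2329 against 3017, 109.7 and 72.2 FPKM, and Col1a2, at 809 to 1554.5 against 1531, 81.7 and 55.4 FPKM. Fn1 was also highest in wild-type replicate 1, but Dcn and Lum were lower in all 3. Dcn was at 169 to 324 against 24.3, 33.0 and 8.27 FPKM, and Lum at 45.2 to 99.9 against 28.8, 11.65 and 4.66 FPKM. In limma 6 of the 11 were higher, 0 lower and 5 did not pass, beside 31.8% higher and 12.8% lower over all genes. Dppa5a and Tdgf1, the most abundant of the pluripotent markers, were at 5.21 to 151 and 4.48 to 106 FPKM across MSTN+/-, against 0.19, 829 and 976.5 FPKM and 0.09, 381 and 444.5 FPKM.

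**Figure D4:**
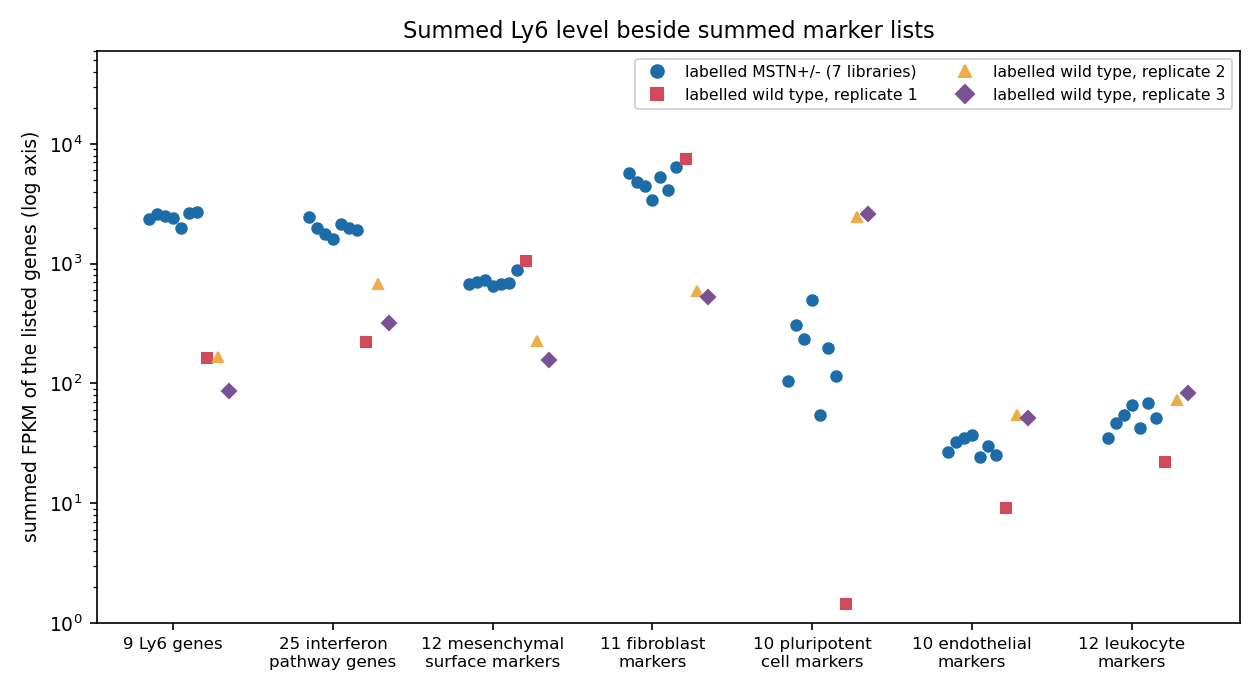
Summed FPKM (log axis) of the 9 Ly6 genes and of 6 gene lists in each library; each point is 1 library. The Ly6 and interferon sums are lower in all 3 wild-type libraries, whereas the fibroblast sum is highest in wild-type replicate 1 at 7486 FPKM and the pluripotent sum highest in replicates 2 and 3 at 2459 and 2583 FPKM.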

How the data were processed

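Per the file headers, the values are FPKM as the authors computed them, with 2 decimals. The sources used here do not give the aligner, genome build or filters. Columns were tied to libraries by title and groups were taken from the genotype label. Replicate numbers follow the order of the sample records and pair nothing. FPKM values were given no count test.

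Members and gene lists were chosen with earlier results of these data known. Members were matched by exact symbol. Differences were fitted on log2(FPKM + 1) with limma 3.58.1 (R 4.3.3), an intensity-dependent prior, no covariate and 8 residual degrees of freedom, for 14047 genes that reached 1 FPKM in 3 or more libraries, with Benjamini-Hochberg adjustment at 0.05. A log2 difference on this scale understates changes of low genes. Named outside the members were, of other Ly6/uPAR genes, those with the 3 smallest p in each direction and those reaching 5 FPKM, the 2 called with the smallest p in each direction per further list, the 3 most alike genes and the 2 most abundant of each marker list; other marker genes were chosen after their values were seen. On simulated data for this comparison with 14047 genes, with 50 genes at each size, the share recovered was 64% at 2-fold, 90% at 4-fold, 94% at 8-fold and 98% at 16-fold, and 6.49% of 185 calls were false. The changed genes had a mean log2(FPKM + 1) of at least 3, and the noise of a gene was independent and equally wide in both groups. Changes of lower genes and the split among the wild-type libraries were not simulated, so these shares need not hold there. Alternatives were 3 scalings, a pseudocount of 0.1, no filter, a mean of at least 5 FPKM, library weights, wild-type replicate 1 as the only control, and leaving out each library. Figures were drawn with matplotlib 3.10.9. A gene that the rule names is not reported here.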

Additional observations from a re-analysis of the deposited data

Results flagged for a closer look

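In 25 sets of 7 MSTN+/- values, those of the members, their sums and the tested genes named with them, 3 single values lay far from the other 6 by Dixon's ratio; chance would flag about 1 in 20 sets. Lynx1 was at 23.93 FPKM in MSTN+/- replicate 7 and at 13.4 to 15.2 FPKM in the other 6 (ratio 0.831). Chrna7 was at 1.02 FPKM in replicate 5 and at 0.28 to 0.53 FPKM in the others (ratio 0.662), below the lowest wild-type value of 1.25 FPKM. Ly6f was at 0.35 FPKM in replicate 3 and at 0 to 0.13 FPKM in the others (ratio 0.629), which may be a level of a few fragments.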

How the results depend on the processing

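Over 18 alternatives Ly6a, Ly6c1, Ly6e, Ly6d, Ly6i and Ly6h kept a positive difference. The log2 difference of the summed members, 4.20, was 4.72 with library weights, 3.89 against wild-type replicate 1 alone and 3.89 to 4.36 with a library left out. That of the Ly6a, Ly6c1, Ly6c2, Ly6f and Ly6i sum, 5.27, was 5.98 with library weights and 4.83 to 5.54 with a library left out. On a pseudocount of 0.1 the low members moved most, Ly6d from 2.48 to 5.55 and Ly6h from 2.02 to 4.38. Ly6k reversed, to -0.069 (quantile), -0.21 (weights) and -0.079 (without wild-type replicate 1; 0.23 without replicate 3), and Ly6g6e to 1.11 against wild-type replicate 1 alone. Genes called lower over the whole table, 1800, numbered 3234 with median-of-ratios scaling, 3491 with quantile normalization, 3368 with library weights, and 791 to 4449 with a library left out (4449, 793 and 791 without wild-type replicates 1, 2 and 3). Other Ly6/uPAR genes called higher, 10, numbered 7 with library weights, 11 with no filter and 9 to 10 with a library left out. At a mean of at least 5 FPKM, where fewer were tested, they numbered 5. Those called lower numbered 2 with no filter (Ly6g5c and Lypd6), 1 against wild-type replicate 1 alone and 0 to 1 with a library left out (Ly6g6e without wild-type replicate 1, Plaur without replicate 2). GPI anchor genes called lower numbered 3 with median-of-ratios scaling or quantile normalization, 2 with library weights, 1 against wild-type replicate 1 alone and 0 to 2 with a library left out, both of the 2 without wild-type replicate 1. Against wild-type replicate 1 alone 1 interferon pathway gene, Jak1, was called lower. Fits against a lone wild-type library assume that it varies like the other 7. Weights were 0.0364, 0.1 and 0.896 for wild-type replicates 1, 2 and 3, so that the weighted values rest mostly on replicate 3, which had the lowest Ly6 sum, and 0.787 to 4.77 for the MSTN+/- libraries, and their estimation stopped before full convergence. Levels below about 1 FPKM may rest on few fragments.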

Other observations

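Surface markers that are often used together with Ly6a on mouse mesenchymal progenitors did not share a pattern. Of 12 tested in limma 5 were higher, 1 lower and 6 did not pass, beside 31.8% higher and 12.8% lower over all genes. Cd34 and Nt5e, the ecto-enzyme CD73, were at 176.6 to 234.9 and 19.3 to 29.7 FPKM across MSTN+/- and lower in all 3 wild-type libraries, at 8, 7.39 and 1.59 FPKM and at 1.68, 0.89 and 1.85 FPKM. Thy1, a GPI-anchored glycoprotein, was at 126.9 to 284 FPKM across MSTN+/- and at 389, 53.4 and 34.0 FPKM across wild-type replicates 1, 2 and 3, with its highest value where Ly6a was at 49.3 FPKM. Itgb1, the integrin beta-1 chain, was at 138 to 155 FPKM against 369.9, 72.5 and 56.4 FPKM, and Pdgfra at 8.05 to 15.8 FPKM against 26.4, 6.31 and 3.30 FPKM. Mcam, an adhesion molecule of perivascular cells, was at 5.94 to 12.5 FPKM across MSTN+/- and higher in all 3 wild-type libraries, at 26.2, 32.9 and 35.4 FPKM. Vcam1, Eng and Entpd1 were, with Cd34 and Nt5e, the 5 called higher. The groups overlapped in Vcam1 and Eng, and Entpd1 passed the filter only through the MSTN+/- libraries, so that it had to differ. Thy1 and Itgb1 were the most abundant of the 12 markers listed, and the others were named after their values were seen.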
